A study of Mus musculus with 12 samples.

Results

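Translation initiation factors (eIFs) and elongation factors (eEFs) were examined in the poly(A) RNA of mouse oocytes with and without MTR4, an RNA helicase that hands nuclear transcripts to the exosome, which degrades them. The genes were chosen by symbol alone: of 66 symbols in the deposited table that begin with Eif1 to Eif6 or with Eef1 or Eef2, 10 were left out, namely Eif1a, Eif4enif1 and the symbols that begin with Eif2ak (kinases) or Eif2c (Argonaute proteins). This left 56 genes of 23235 symbols. The symbol rule itself uses no measured value, but it was set with earlier results of these data known. The 4 groups were Mtr4-null oocytes at day 14, WT oocytes at day 14, Mtr4-null oocytes at day 21 and WT oocytes at day 21. The day 14 oocytes are described as growing GV and the day 21 oocytes as germinal vesicle (GV) stage, all from mouse ovaries. The labels list 3 libraries of 10 oocytes per group, made by Smart-seq2, which amplifies whole polyadenylated transcripts without regard to strand, and the series' design text mentions duplicates. The mouse strain, how the Mtr4 gene was removed and in which cells, and whether libraries came from separate animals are not given in the sources used here.

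Translation begins when eIF2 carries the initiator tRNA to the small ribosomal subunit together with eIF1, eIF1A, eIF3 and eIF5, and when eIF4F (the cap-binding eIF4E, the scaffold eIF4G and the helicase eIF4A) recruits that complex to the capped mRNA. The exchange factor eIF2B recharges eIF2 with GTP, and eIF5B joins the ribosomal subunits. eEF1A then delivers aminoacyl-tRNAs and is recharged by the eEF1B exchange complex, and eEF2 moves the ribosome along the mRNA. Growing oocytes make and store the mRNAs used in meiosis and in the early embryo, and the control of cap binding and of poly(A) tails is known to govern which stored mRNAs are translated.

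Each value below is an FPKM (fragments per kilobase of transcript, scaled to the fragments of the library), given as 1 group mean made by the authors. No value per library was used, so no value has a replicate error, no test was possible and library depth is unknown. The endings of the numbers fit a mean of 3 rounded values in 3 columns, whereas 92.3% of 2211 values of 10 to 100 FPKM with 5 decimals in the Mtr4-null day 21 column end in 5, which a mean of 2 gives. Every comparison that uses this column may therefore rest on fewer libraries than the labels list. Skiv2l2, the older symbol of the MTR4 gene, stood at 1.57 FPKM in Mtr4-null and 27.6 FPKM in WT oocytes at day 14, and at 3.86 FPKM in Mtr4-null and 26.3 FPKM in WT oocytes at day 21. All 12 oocyte markers were detected, with 49.0 FPKM as the lowest value in any group. They summed to 24766 FPKM in Mtr4-null and 24604 FPKM in WT oocytes at day 14, and to 13374 FPKM in Mtr4-null and 17684 FPKM in WT oocytes at day 21. The 10 granulosa markers summed to 23.8 to 38.2 FPKM per group, with Cyp19a1 the highest at 25.3 FPKM, and 5 of them stayed under 1 FPKM in each group. The 11 markers of theca, stroma, endothelium and blood summed to 3.10 FPKM in Mtr4-null and 21.6 FPKM in WT oocytes at day 21, of which Pecam1 gave at most 20.7 FPKM, and to 11.3 FPKM in Mtr4-null and 14.04 FPKM in WT oocytes at day 14. Hbb-b1 and Hba-a1 were listed at 0, and the part of these other cells in the results was not tested. FPKM are shares of a library, so they do not give the amount of an mRNA per oocyte. Fewer oocytes that hold an mRNA and less of it in each oocyte cannot be told apart.

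Differences are given on the log2(FPKM + 1) scale as Mtr4-null minus WT, a scale that shrinks differences between low levels, and folds are plain ratios of FPKM. Higher and lower in the counts below mean at least 2-fold on the log2(FPKM + 1) scale, a rule of size with no test behind it. Of the 56 genes, 54 averaged 1 FPKM or more across the groups and were compared. The other 2 were Eef1a2, the muscle and brain form of eEF1A, and Eif2s3y, the Y-linked copy of the eIF2 gamma subunit gene, and both were listed at 0 in all 4 groups.

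At day 14 the translation factor mRNAs stood close to their WT levels: none of the 54 was 2-fold higher or lower in Mtr4-null oocytes, where 9.65% of all 11913 genes compared were, 8.10% higher and 1.55% lower. The log2 differences ran from -0.88 for Eif4g3 to 0.91 for Eif5a2, with a median of -0.061 against 0.052 for all genes. Eif4g3, a scaffold of the cap-binding complex, stood at 5.10 FPKM in Mtr4-null and 10.2 FPKM in WT oocytes and was lower by more than 2-fold under quantile normalization, with a log2 difference of -1.10. Eif5a2, a minor form of eIF5A, stood at 3.57 FPKM in Mtr4-null and 1.44 FPKM in WT oocytes, and was higher by more than 2-fold with a pseudocount of 0.1 in place of 1, with a log2 difference of 1.25. The 54 mRNAs summed to 6133 FPKM in Mtr4-null and 6531 FPKM in WT oocytes, which is 1.03% of all FPKM in the Mtr4-null and 1.09% in the WT column.

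At day 21, 6 of the 54 were higher and 18 lower in Mtr4-null oocytes. Among all genes compared, 46.0% were 2-fold apart, with 20.2% higher and 25.7% lower. The 24 factors apart make 44.4% of the 54, a share near that of all genes. By direction, 11.1% of the factors were higher and 33.3% lower, and this lower share exceeds that of all genes only without rescaling between columns. The median log2 difference of the 54 was -0.60, against -0.27 for all genes, so it lay 0.32 below the whole. The summed FPKM was 4871 in Mtr4-null and 6833 in WT oocytes, which is 0.749% of the Mtr4-null and 1.13% of the WT column. Scaling by the median of ratios, which moves the median of all genes from -0.27 to 0, gave 7 factors higher and 7 lower. These are 12.96% each way, beside 24.6% of all genes above and 18.0% below by that size. With quantile normalization 6 factors (11.1%) were higher and 12 (22.2%) lower, beside 19.7% and 25.8% of all genes. The higher share of the factors was below that of all genes in each case. The median of the factors lay 0.28 and 0.21 below that of all genes under these scalings. Under each of the 5 alternatives that kept the gene, Eif4a2, Eif4ebp1, Eif4ebp2, Eif5a2, Eef1b2 and Eef1g stayed 2-fold higher, and Eef2k, Eif4e3, Eif2b2, Eif2b4, Eif4g3, Eif1ax and Eif6 stayed 2-fold lower. A minimum mean FPKM of 5 drops Eif4ebp2 and Eif5a2.

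**Figure D1:**
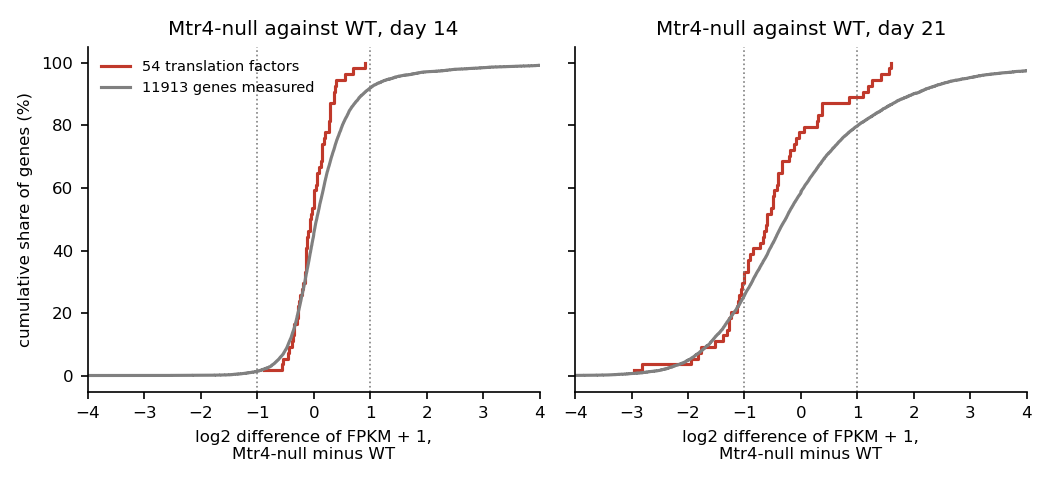
Cumulative share of genes (%) over the log2 difference of FPKM + 1, Mtr4-null minus WT, at day 14 (left) and day 21 (right), for the 54 translation factors (red) and the 11913 genes compared (grey); dotted lines mark a 2-fold difference. At day 14 the red curve lies wholly between the dotted lines, and at day 21 it runs to the left of the grey curve at its median, -0.60 against -0.27.

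**Figure D2:**
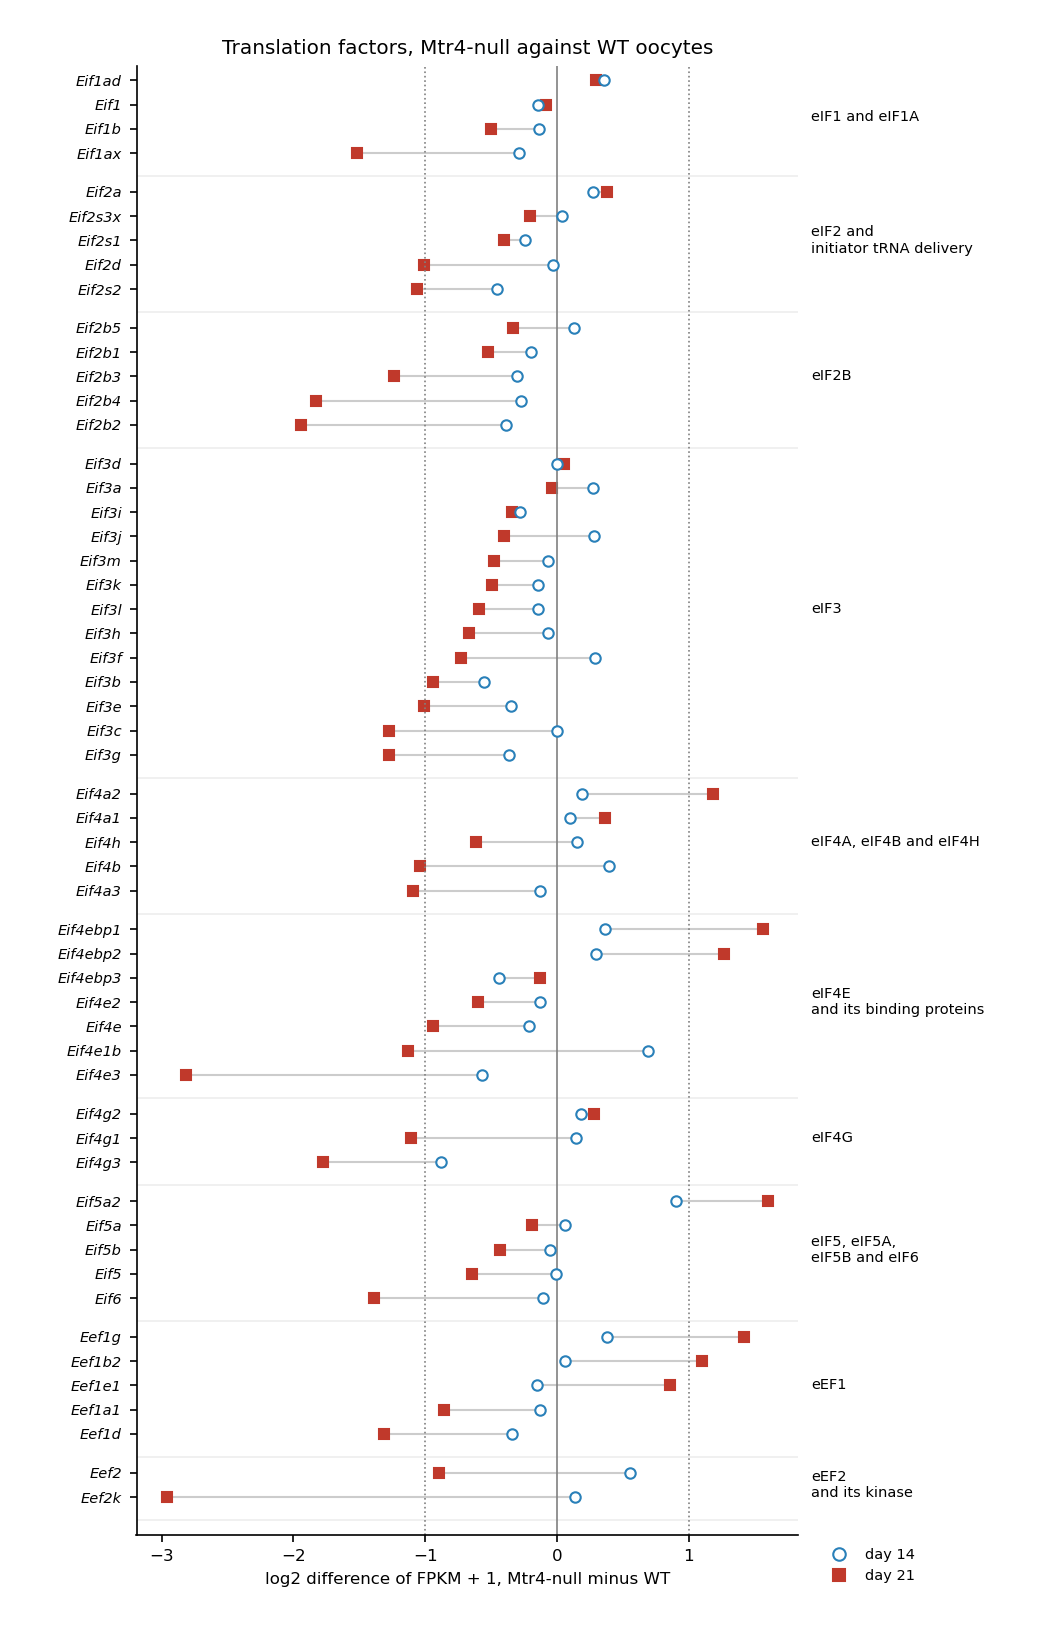
Log2 difference of FPKM + 1, Mtr4-null minus WT, of each translation factor by complex, with open circles for day 14 and filled squares for day 21; dotted lines mark a 2-fold difference. The circles lie between the dotted lines, and the squares of 18 factors lie left and of 6 right of them.

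The promoters of 42 of the 54 factors could be matched by symbol to RefSeq windows of 300 bases (250 before and 50 from the transcription start, build GRCm38.p6). The letters CCGGAAG, a core bound by ETS family factors, were found on either strand in 15 of the 42 windows (35.7%), against 20.4% of 8394 genes compared that have a window and 9.93% of all 27025 genes with one. The E-box letters CACGTG, bound by MYC and USF factors, were found in 12 of the 42 (28.6%), against 11.8% and 8.09%. The letters TATAAA were found in 4 of the 42 (9.52%), against 9.16% and 15.7%. No match of one of these strings can overlap a match of another. Of the factors with a window, CCGGAAG was present in 3 of 4 that were higher at day 21, 5 of 12 that were lower and 7 of 26 that were neither. CACGTG was present in 1, 2 and 9 of these. The 4 and 12 are those with a window among the 6 higher and 18 lower factors. The same split over all genes is not given, and a link between motif and direction was not tested. Genes with several windows counted once. For Eef2k, Eif2b2, Eif2b4 and Eef1b2, windows are shown from 40 bases before to 30 bases after the first listed start. They run 5′ to 3′, with the motif in capitals. All hold a motif. Eef2k had the lowest day 21 log2 difference of the 54, at -2.96, and the gene at the upper end, Eif5a2, is not shown. Eef1b2 had a day 21 log2 difference of 1.10, against 1.60 for Eif5a2 and 1.27 for Eif4ebp2. The windows of Eif5a2 and Eif4ebp2 hold the ETS letters as well. Those of Eif2b2 and Eif2b4 (lower at day 21) and of Eef1b2 (higher) hold the ETS letters within 30 bases after the start, and that of Eef2k (lower) holds the E-box 31 bases before it.
Eef2k, chr7:120842791-120842860, plus strand: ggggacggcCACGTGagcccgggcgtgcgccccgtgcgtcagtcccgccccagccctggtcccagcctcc
Eif2b2, chr12:85219441-85219510, plus strand: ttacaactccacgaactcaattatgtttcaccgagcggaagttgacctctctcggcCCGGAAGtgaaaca
Eif2b4, chr5:31193110-31193179, minus strand: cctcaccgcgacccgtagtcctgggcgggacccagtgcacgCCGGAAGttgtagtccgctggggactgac
Eef1b2, chr1:63176791-63176860, plus strand: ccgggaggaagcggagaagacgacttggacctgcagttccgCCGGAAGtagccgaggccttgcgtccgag

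Of the 4 genes in the eIF1 and eIF1A group, the eIF1A gene on the X chromosome was the only one 2-fold apart at day 21. Eif1ax stood at 307 FPKM in Mtr4-null and 375 FPKM in WT oocytes at day 14, and at 146 FPKM in Mtr4-null and 420 FPKM in WT oocytes at day 21, 2.87-fold lower. Eif1 and Eif1b encode close forms of eIF1, which guards against initiation at wrong codons. Eif1 stood at 368 FPKM in Mtr4-null and 406 FPKM in WT oocytes at day 14, and at 435 FPKM in Mtr4-null and 461 FPKM in WT oocytes at day 21. Eif1b stood at 390 FPKM in Mtr4-null and 429 FPKM in WT oocytes at day 14, and at 356 FPKM in Mtr4-null and 503 FPKM in WT oocytes at day 21. Neither gene was 2-fold apart at either age, and together with Eif1ax they were among the most abundant translation factor mRNAs. Eif1ad, whose product carries an eIF1A-like domain, stood between 14.9 and 19.7 FPKM in the 4 groups, and its exons share 428 bases with Banf1 on the opposite strand.

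The subunits of eIF2, the GTPase that brings the initiator tRNA, differed in size of response at day 21. Eif2s2, the beta subunit, stood at 158 FPKM in Mtr4-null and 217 FPKM in WT oocytes at day 14, and at 129 FPKM in Mtr4-null and 270 FPKM in WT oocytes at day 21, a log2 difference of -1.06. Eif2s1, the alpha subunit that stress kinases phosphorylate, stood at 51.0 FPKM in Mtr4-null and 67.9 FPKM in WT oocytes at day 21, and Eif2s3x, the gamma subunit, at 30.7 FPKM in Mtr4-null and 35.5 FPKM in WT oocytes. The beta mRNA was thus the most abundant of the eIF2 subunits in each group and the only subunit mRNA past 2-fold at day 21. Eif2d, which encodes a factor that delivers tRNA to the ribosome without eIF2, stood at 20.8 FPKM in Mtr4-null and 42.9 FPKM in WT oocytes at day 21, 2.06-fold lower. Eif2a, another factor outside the eIF2 complex, stood at 37.0 FPKM in Mtr4-null and 28.3 FPKM in WT oocytes. Neither Eif2s2 nor Eif2d was 2-fold apart with median-of-ratios or quantile scaling, with log2 differences no lower than -0.94.

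All 5 eIF2B mRNAs were below WT at day 21 under each setting that kept them. As deposited 3 of the 5 were 2-fold lower, and under median-of-ratios scaling 2 were. Among all genes 25.7% were 2-fold lower as deposited and 18.0% under that scaling, and 6959 of 11913 were below WT as deposited. Eif2b2, the beta subunit, stood at 19.5 FPKM in Mtr4-null and 25.7 FPKM in WT oocytes at day 14, and at 8.49 FPKM in Mtr4-null and 35.4 FPKM in WT oocytes at day 21, 4.17-fold lower. Eif2b4, the delta subunit, stood at 55.4 FPKM in Mtr4-null and 67.0 FPKM in WT oocytes at day 14, and at 26.8 FPKM in Mtr4-null and 97.7 FPKM in WT oocytes at day 21, 3.64-fold lower. Eif2b3, the gamma subunit, stood at 48.1 FPKM in Mtr4-null and 59.4 FPKM in WT oocytes at day 14, and at 26.8 FPKM in Mtr4-null and 64.6 FPKM in WT oocytes at day 21, with a log2 difference of -1.24, or -0.92 under median-of-ratios scaling. The beta, delta and gamma subunits were therefore further from WT than the alpha subunit Eif2b1, at 163 FPKM in Mtr4-null and 235 FPKM in WT oocytes. Eif2b5, the catalytic epsilon subunit, was the least abundant subunit mRNA in each group, at 2.84 FPKM in Mtr4-null and 3.84 FPKM in WT oocytes at day 21. The 5 mRNAs summed to 228 FPKM in Mtr4-null and 437 FPKM in WT oocytes at day 21, against 351 FPKM in Mtr4-null and 412 FPKM in WT oocytes at day 14. Exons of Eif2b4 share 204 bases with Snx17 on the opposite strand, which stood at 27.4 FPKM in Mtr4-null and 32.4 FPKM in WT oocytes at day 21.

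eIF3, the largest initiation factor, binds the small subunit and bridges it to eIF4G, and most of its 13 mRNAs were modestly below WT at day 21. In Mtr4-null oocytes 12 of the 13 were below WT, 3 were 2-fold lower and none was 2-fold higher, with a median log2 difference of -0.59. Among all genes 6959 of 11913 were below WT, with a median of -0.27. The 3 are 23.1% of the 13, near the 25.7% of all genes that were lower. Eif3g stood at 81.7 FPKM in Mtr4-null and 199 FPKM in WT oocytes, 2.44-fold lower. Eif3c, part of the core that contacts eIF1 and eIF5, stood at 18.4 FPKM in Mtr4-null and 46.0 FPKM in WT oocytes, and Eif3e at 54.6 FPKM in Mtr4-null and 111 FPKM in WT oocytes. At day 14 Eif3g stood at 142 FPKM in Mtr4-null and 183 FPKM in WT oocytes, Eif3c at 43.1 FPKM in Mtr4-null and 43.0 FPKM in WT oocytes, and Eif3e at 86.3 FPKM in Mtr4-null and 110 FPKM in WT oocytes. Under median-of-ratios scaling none of the 13 was 2-fold apart and 11 were below WT, with a median of -0.27, and under quantile normalization 2 were 2-fold lower. Eif3a, the large scaffold subunit, and Eif3d, which can bind the mRNA cap, were nearest to WT at day 21 as deposited. Under median-of-ratios scaling Eif3a had a log2 difference of 0.27 and Eif3d of 0.37, and Eif3i was nearest at -0.016. Eif3a stood at 13.8 FPKM in Mtr4-null and 14.2 FPKM in WT oocytes, and Eif3d at 52.4 FPKM in Mtr4-null and 50.5 FPKM in WT oocytes. The least abundant subunit was Eif3b, at 5.15 FPKM in Mtr4-null and 10.8 FPKM in WT oocytes at day 21, and Eif3m, Eif3k and Eif3g were the 3 highest in WT. The levels of the 13 genes ranked alike in the Mtr4-null and WT columns, with Spearman's rho of 0.99 at day 14 and 0.94 at day 21 across genes, which are not replicates and share the library of each column. Eif3j is the older symbol of Eif3j1, whose reads may be shared with its intronless copy Eif3j2, and it stood between 20.1 and 31.0 FPKM in the 4 groups.

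The helicase mRNAs of the eIF4A family differed in direction at day 21. Eif4a1 was the most abundant helicase mRNA, with 568 FPKM in Mtr4-null and 530 FPKM in WT oocytes at day 14, and 571 FPKM in Mtr4-null and 442 FPKM in WT oocytes at day 21. Eif4a2, its close paralog, stood at 110 FPKM in Mtr4-null and 96.4 FPKM in WT oocytes at day 14, and at 227 FPKM in Mtr4-null and 99.2 FPKM in WT oocytes at day 21, 2.29-fold higher. Eif4a1 was therefore 2.51 times as abundant as Eif4a2 in Mtr4-null and 4.46 times in WT oocytes at day 21. Eif4a3, a nuclear paralog that belongs to the exon junction complex, stood at 93.2 FPKM in Mtr4-null and 199 FPKM in WT oocytes at day 21. Eif4b and Eif4h encode cofactors that stimulate the helicase. Eif4b stood at 28.7 FPKM in Mtr4-null and 59.9 FPKM in WT oocytes at day 21, and Eif4h at 59.1 FPKM in Mtr4-null and 91.0 FPKM in WT oocytes. Neither Eif4a3 nor Eif4b was 2-fold lower under median-of-ratios scaling, with log2 differences of -0.77 and -0.72, or under quantile normalization, with -0.97 and -0.84.

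Among the scaffolds, Eif4g1 and Eif4g3, which bind eIF4E, were lower at day 21, and Eif4g2 was not. Eif4g3 stood at 2.43 FPKM in Mtr4-null and 10.8 FPKM in WT oocytes, 4.43-fold lower, and Eif4g1 at 4.62 FPKM in Mtr4-null and 11.1 FPKM in WT oocytes, 2.40-fold lower. Eif4g1 had a log2 difference of -1.11, or -0.83 under median-of-ratios scaling. Eif4g2, also called DAP5, lacks the eIF4E-binding part and serves cap-independent initiation. It was the most abundant scaffold mRNA, with 76.5 FPKM in Mtr4-null and 67.2 FPKM in WT oocytes at day 14, and 79.9 FPKM in Mtr4-null and 65.7 FPKM in WT oocytes at day 21. Eif4g2 was thus 17.3 times as abundant as Eif4g1 in Mtr4-null and 5.91 times in WT oocytes at day 21, against 7.30 times in Mtr4-null and 7.15 times in WT oocytes at day 14.

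At day 21 the mRNAs of the cap-binding proteins stood below WT and those of the inhibitors Eif4ebp1 and Eif4ebp2 above it. Eif4e3, a family member that binds the cap in an unusual way, stood at 112 FPKM in Mtr4-null and 167 FPKM in WT oocytes at day 14, and at 29.3 FPKM in Mtr4-null and 211 FPKM in WT oocytes at day 21, 7.22-fold lower. Eif4e1b, the oocyte form of eIF4E, stood at 160 FPKM in Mtr4-null and 98.5 FPKM in WT oocytes at day 14, and at 62.2 FPKM in Mtr4-null and 138 FPKM in WT oocytes at day 21. It was thus above WT at day 14 and below WT at day 21, with log2 differences of 0.69 and -1.13. The day 21 value was -0.81 under median-of-ratios scaling and -0.97 under quantile normalization. Eif4e itself stood at 196 FPKM in Mtr4-null and 227 FPKM in WT oocytes at day 14, and at 120 FPKM in Mtr4-null and 231 FPKM in WT oocytes at day 21, 1.93-fold lower and just short of the 2-fold rule. Eif4e2, a weak cap binder used in repression, stood at 10.2 FPKM in Mtr4-null and 16.0 FPKM in WT oocytes at day 21. All 4 mRNAs were below WT at day 21 under the scalings tried, where 6959 of 11913 genes were below WT as deposited. The sum of the 4 as deposited was 222 FPKM in Mtr4-null and 596 FPKM in WT oocytes, 2.69-fold lower. The sum was 2.15-fold lower under median-of-ratios scaling and 2.44-fold lower under quantile normalization. At day 14 the sums were 485 FPKM in Mtr4-null and 511 FPKM in WT oocytes. Exons of Eif4e3 share 373 bases with the gene model Gm20696 on the same strand.

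The eIF4E-binding proteins block the assembly of eIF4F until mTOR phosphorylates them. Eif4ebp1 stood at 17.6 FPKM in Mtr4-null and 13.5 FPKM in WT oocytes at day 14, and at 16.4 FPKM in Mtr4-null and 4.89 FPKM in WT oocytes at day 21, 3.35-fold higher. Eif4ebp2 stood at 4.42 FPKM in Mtr4-null and 3.42 FPKM in WT oocytes at day 14, and at 5.16 FPKM in Mtr4-null and 1.56 FPKM in WT oocytes at day 21, 3.31-fold higher. Both mRNAs were at lower FPKM in WT oocytes at day 21 than in the other 3 groups. Eif4ebp3 stood between 3.76 and 5.47 FPKM in the 4 groups. At day 21 it stood at 4.57 FPKM in Mtr4-null and 5.09 FPKM in WT oocytes. Its log2 difference was -0.13, and -0.20 to 0.14 over the settings that kept it. The summed FPKM of the cap-binding family was 8.49 times that of the binding proteins in Mtr4-null and 51.7 times in WT oocytes at day 21, against 18.8 times in Mtr4-null and 22.8 times in WT oocytes at day 14.

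**Figure D3:**
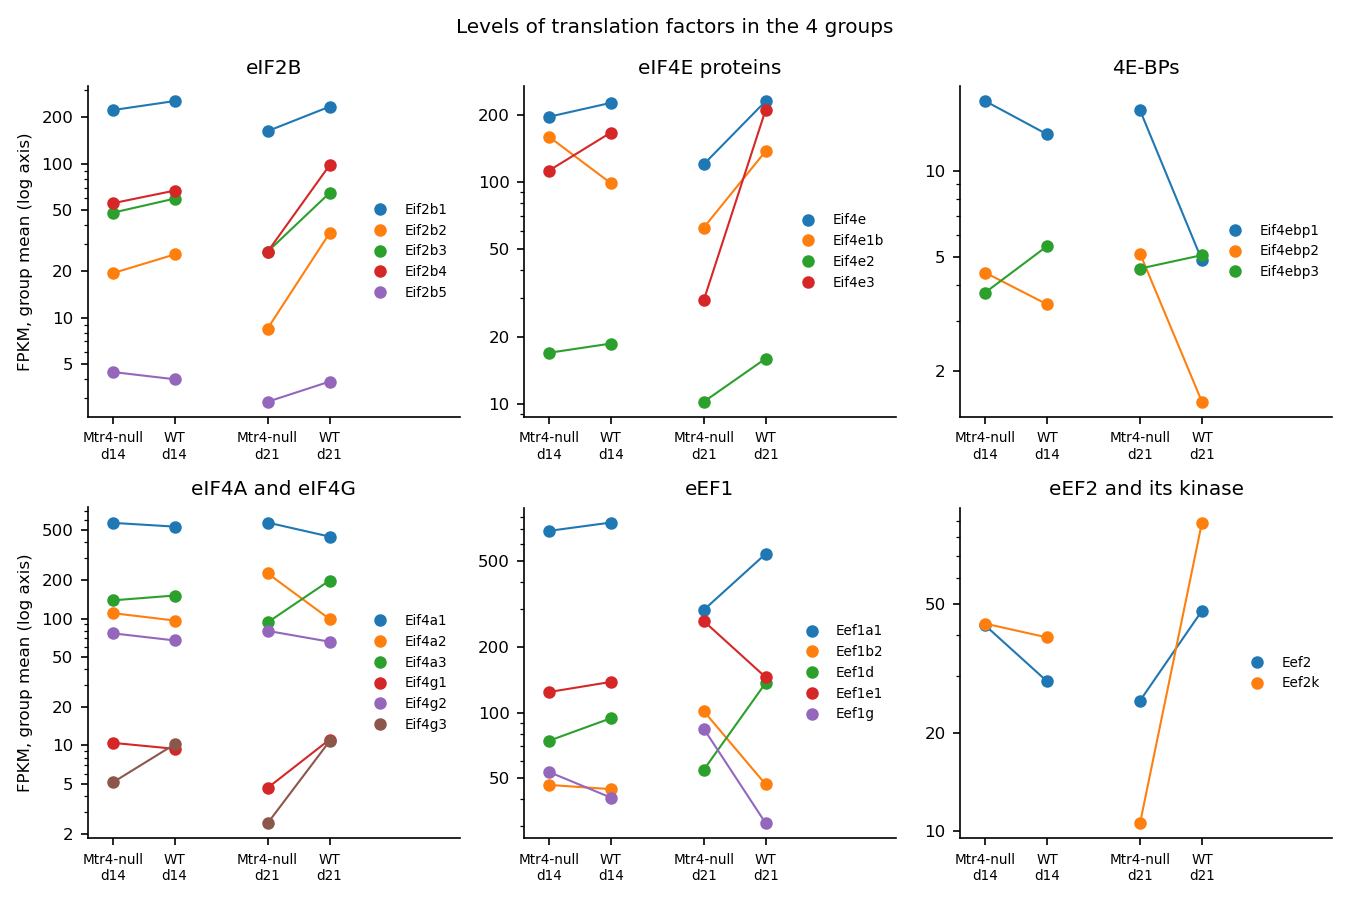
Group mean FPKM (log axis) of translation factors in 6 families, with Mtr4-null left of WT at day 14 and again at day 21; each colour is a gene and lines join the genotypes of an age. At day 21 the lines run steeply for Eif4e3, at 29.3 FPKM in Mtr4-null and 211 FPKM in WT oocytes, and for Eif4ebp1, at 16.4 FPKM in Mtr4-null and 4.89 FPKM in WT oocytes.

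In the group of eIF5, eIF5A, eIF5B and eIF6, Eif6 was lower and Eif5a2 higher at day 21. Eif6, which keeps the large ribosomal subunit apart until it is mature, stood at 122 FPKM in Mtr4-null and 131 FPKM in WT oocytes at day 14, and at 75.6 FPKM in Mtr4-null and 200 FPKM in WT oocytes at day 21, 2.64-fold lower. Its exons share 138 bases with an antisense gene, Gm16098. Eif5, the GTPase-activating partner of eIF2, stood at 75.7 FPKM in Mtr4-null and 119 FPKM in WT oocytes at day 21, and Eif5b at 20.0 FPKM in Mtr4-null and 27.2 FPKM in WT oocytes. Eif5a encodes the hypusinated factor that helps ribosomes through difficult stretches, and stood at 316 FPKM in Mtr4-null and 304 FPKM in WT oocytes at day 14, and at 296 FPKM in Mtr4-null and 337 FPKM in WT oocytes at day 21. Eif5a2 stood at 2.92 FPKM in Mtr4-null and 0.291 FPKM in WT oocytes at day 21, 0.00986 times the FPKM of Eif5a in Mtr4-null and 0.000862 times in WT oocytes.

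The elongation factors of the eEF1 group differed in direction at day 21. Eef1g, a structural subunit of the exchange complex, stood at 53.4 FPKM in Mtr4-null and 40.7 FPKM in WT oocytes at day 14, and at 84.4 FPKM in Mtr4-null and 31.0 FPKM in WT oocytes at day 21, 2.72-fold higher. Eef1b2, a subunit with exchange activity, stood at 46.5 FPKM in Mtr4-null and 44.5 FPKM in WT oocytes at day 14, and at 102 FPKM in Mtr4-null and 46.7 FPKM in WT oocytes at day 21, 2.18-fold higher. Eef1d, the other subunit with exchange activity, stood at 74.3 FPKM in Mtr4-null and 94.3 FPKM in WT oocytes at day 14, and at 54.6 FPKM in Mtr4-null and 137 FPKM in WT oocytes at day 21, 2.51-fold lower. Its log2 difference was -1.31, and -0.99 under median-of-ratios scaling. Eef1d was 0.537 times as abundant as Eef1b2 in Mtr4-null and 2.94 times in WT oocytes at day 21, against 1.60 times in Mtr4-null and 2.12 times in WT oocytes at day 14, and these ratios within a column do not depend on its scaling by a single factor. The 3 exchange subunits summed to 241 FPKM in Mtr4-null and 215 FPKM in WT oocytes at day 21. Eef1d shares 277 exonic bases with Naprt on the same strand, listed as Naprt1 at 0.953 FPKM in Mtr4-null and 2.63 FPKM in WT oocytes, and Eef1b2 shares 9 with Ndufs1 on the opposite strand.

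Eef1a1, which encodes the main tRNA carrier and whose reads can be shared with its many processed copies, had the highest FPKM of the 54 in WT at both ages. It stood at 687 FPKM in Mtr4-null and 751 FPKM in WT oocytes at day 14, and at 297 FPKM in Mtr4-null and 539 FPKM in WT oocytes at day 21, a log2 difference of -0.86. Eef1e1, which encodes a small protein of the tRNA synthetase complex, stood at 264 FPKM in Mtr4-null and 146 FPKM in WT oocytes at day 21, 1.81-fold higher, and passed the 2-fold rule under median-of-ratios scaling with a log2 difference of 1.18. Eef2 stood at 42.9 FPKM in Mtr4-null and 28.8 FPKM in WT oocytes at day 14, and at 25.1 FPKM in Mtr4-null and 47.6 FPKM in WT oocytes at day 21. Eef2k, the kinase that inhibits eEF2, showed the lowest log2 difference of the 54, at -2.96. It stood at 43.4 FPKM in Mtr4-null and 39.4 FPKM in WT oocytes at day 14, and at 10.5 FPKM in Mtr4-null and 88.9 FPKM in WT oocytes at day 21, 8.43-fold lower. Exons of Eef2k share 101 bases with the antisense gene Gm15774.

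The change with age was set out within each genotype, as day 21 minus day 14. In Mtr4-null oocytes 3 of the 54 were 2-fold higher and 11 lower at day 21, where 9.08% of all genes were higher and 18.6% lower, 27.7% in all. In WT oocytes 1 was higher and 1 lower, where 2.02% of all genes were higher and 3.32% lower, 5.35% in all. In WT, Eef2k was higher at day 21 by 1.16 and Eif4ebp1 lower by a log2 difference of -1.30. In Mtr4-null oocytes the value was -1.94 for Eef2k and -0.10 for Eif4ebp1. The 3 that were higher with age in Mtr4-null oocytes were Eef1b2, Eef1e1 and Eif4a2, with log2 differences of 1.11, 1.08 and 1.04, and their WT values lay near 0. Eif4e3, Eif4e1b and Eef1a1 were lower with age in Mtr4-null oocytes by -1.90, -1.35 and -1.21, with WT values of 0.34, 0.48 and -0.48. The others were Eif2d, Eif3c, Eif2b2, Eif1ax, Eif4g1, Eif2b4 and Eif4h, with Eif2d the lowest at -1.20. In Mtr4-null oocytes median-of-ratios scaling gave 4 higher with age and 2 lower, Eif4e3 and Eef2k, beside 15.4% and 8.73% of all genes. Under quantile normalization 3 were higher and 5 lower, beside 12.4% and 13.4% of all genes. The difference of the genotype differences, day 21 minus day 14, was -3.10 for Eef2k, -2.24 for Eif4e3 and -1.82 for Eif4e1b, and 1.20 for Eif4ebp1. It was past 1 in size for 16 of the 54, 4 of them above and 12 below 0, where 36.0% of all genes were, 13.6% above and 22.4% below. The split was 6 above and 7 below under median-of-ratios scaling, 11.1% and 12.96% of the factors, where 20.0% of all genes were above and 12.3% below.

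**Figure D4:**
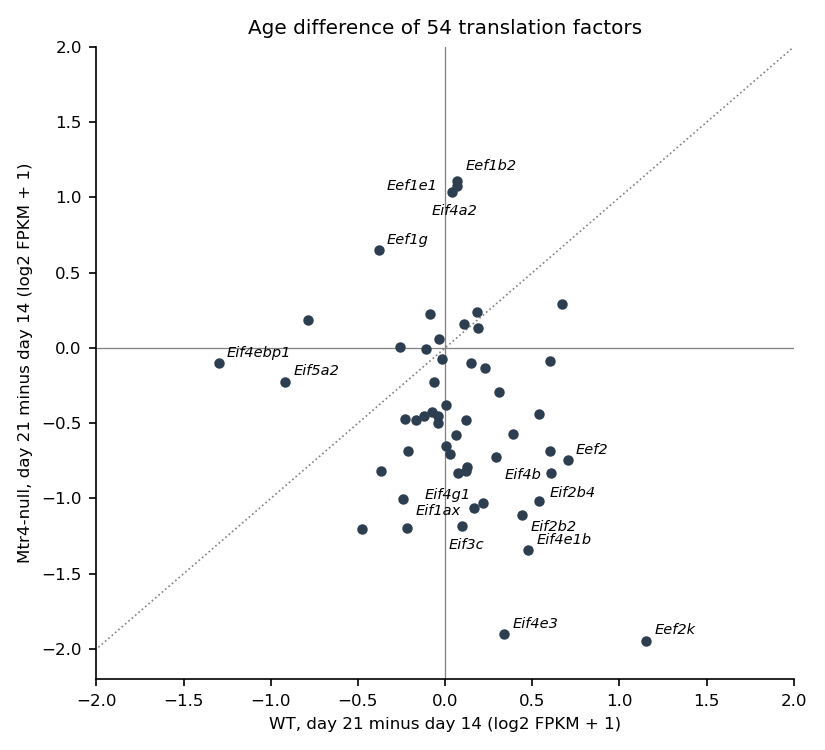
Log2 difference of FPKM + 1 between day 21 and day 14 in WT oocytes (horizontal) and Mtr4-null oocytes (vertical) for the 54 translation factors; the dotted line marks equal values. Eef2k lies at the lower right, with 1.16 in WT and -1.94 in Mtr4-null oocytes, and Eef1b2, Eef1e1 and Eif4a2 lie at the top with WT values near 0.

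The 56 genes lie on 19 chromosomes, the X and Y included, and share no single locus. Of the 54 compared, 8 hold at least 1 annotated snoRNA gene on their own strand, which is a known place for snoRNA production from introns. These were Eef1b2, Eef2, Eif3a, Eif4a1, Eif4a2, Eif4g1, Eif4g2 and Eif5. At day 14, 7 of these 8 were above WT, with a median log2 difference of 0.16, against 16 of the 46 others, with a median of -0.13. At day 21, 2 of the 8 were 2-fold higher and 1 lower with a median of 0.12, against 4 higher and 17 lower of the 46 others with a median of -0.61. This split was looked at with the values known and was not tested. Of all genes compared, 6501 of 11913 were above WT at day 14. The day 14 signs of the snoRNA hosts depended in part on scaling. Over the alternatives the lowest value was -0.032 for Eef1b2, -0.071 for Eif4g1 and 0.0005 for Eif4a1. Eef2, Eif3a, Eif4a2 and Eif4g2 stayed above WT under each of them. Across the 54 genes the day 21 difference had a Spearman's rho of -0.27 with the largest exon number of a transcript, -0.049 with exonic length and -0.14 with mean FPKM. These are descriptions across genes that share the libraries of each column. In all, 16 of the 54 share exonic bases with another gene in the annotation, 13 of them with a gene on the opposite strand. At day 21, 8 of those 16 were 2-fold apart, where 44.4% of the 54 factors and 46.0% of all genes were. Reads from shared exonic stretches could be counted for either gene.

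Other genes of translation were followed in a list of 40, all found in the table, of which 38 were compared. At day 14 none was 2-fold higher and 1 was lower, Pdcd4, an inhibitor of eIF4A, at 14.7 FPKM in Mtr4-null and 33.3 FPKM in WT oocytes. At day 21, 8 were higher and 13 lower, with a median log2 difference of -0.40, beside the 20.2% higher and 25.7% lower of all genes. After median-of-ratios scaling 9 were higher and 10 lower and the median was -0.084, beside 24.6% and 18.0% of all genes. The 3 genes of reinitiation and tRNA removal after termination were higher under each setting that kept them. Denr stood at 199 FPKM in Mtr4-null and 20.0 FPKM in WT oocytes at day 21, against 43.0 FPKM in Mtr4-null and 24.0 FPKM in WT oocytes at day 14. Its partner Mcts1 stood at 41.8 FPKM in Mtr4-null and 11.2 FPKM in WT oocytes at day 21, and the retrocopy Mcts2, which may share its reads, at 7.32 FPKM in Mtr4-null and 1.41 FPKM in WT oocytes. Eif2d, whose product resembles the joined DENR and MCTS1 proteins, was below WT at day 21, as given above. Both enzymes that place hypusine on eIF5A were higher at day 21, with Dhps at 23.0 FPKM in Mtr4-null and 5.41 FPKM in WT oocytes and Dohh at 30.4 FPKM in Mtr4-null and 12.2 FPKM in WT oocytes.

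The 6 genes of poly(A) tail binding divided at day 21. Pabpc1, the general poly(A)-binding protein, stood at 28.1 FPKM in Mtr4-null and 9.32 FPKM in WT oocytes. Pabpc1l, its oocyte form, stood at 39.2 FPKM in Mtr4-null and 154 FPKM in WT oocytes, with a log2 difference of -1.95. The interacting proteins Paip1, Paip2 and Paip2b were lower as well, with log2 differences of -1.70, -1.69 and -2.47, and Pabpc4 had -1.20, or -0.89 under median-of-ratios scaling. Of the kinases of the eIF2 alpha subunit, Eif2ak4, also called GCN2, had a log2 difference of -2.41 at day 21 and Eif2ak1 of -1.39, whereas Eif2ak3 stood at 12.2 FPKM in Mtr4-null and 1.74 FPKM in WT oocytes. Neither subunit gene of the eIF2 alpha phosphatase was 2-fold apart. In the mTOR branch Pdcd4 stood at 3.78 FPKM in Mtr4-null and 27.6 FPKM in WT oocytes and Mtor at 1.47 FPKM in Mtr4-null and 5.27 FPKM in WT oocytes, and Rps6kb2 had a log2 difference of -1.15, with -0.96 as the value nearest 0 over the alternatives. None of the 6 release and recycling factors was 2-fold apart at day 21. The largest difference there was that of Abce1, which splits ribosomes, at 17.7 FPKM in Mtr4-null and 8.86 FPKM in WT oocytes. Its log2 difference was 0.92, and up to 1.23 over the alternatives. Of 8 other elongation and organelle factors compared, 1 was higher and 3 lower. Of the 3, Gtpbp1 had a log2 difference of -1.16, with -0.87 nearest 0 over the alternatives, where 2 were lower under median-of-ratios scaling. Mtif2 stood at 12.3 FPKM in Mtr4-null and 4.44 FPKM in WT oocytes and Eefsec, the selenocysteine elongation factor, at 3.55 FPKM in Mtr4-null and 21.5 FPKM in WT oocytes.

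**Figure D5:**
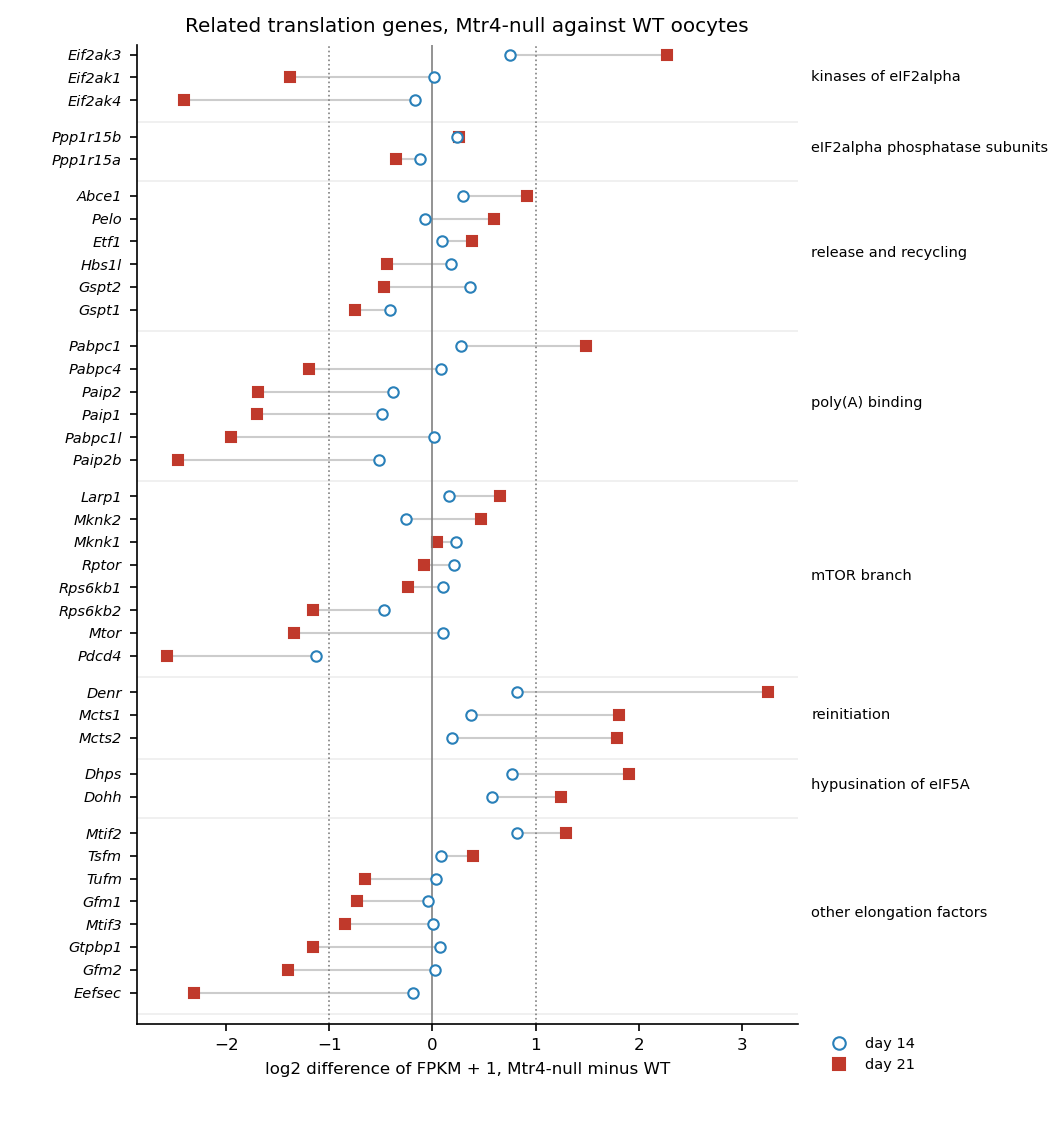
Log2 difference of FPKM + 1, Mtr4-null minus WT, of 38 other translation genes by function, with open circles for day 14 and filled squares for day 21; dotted lines mark a 2-fold difference. Denr, Mcts1, Mcts2, Dhps and Dohh lie right of the dotted line at day 21, and 5 of the 6 poly(A) binding genes lie left of it.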

How the data were processed

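Poly(A) RNA of 12 libraries in 4 groups was sequenced, per the labels' protocols, after Smart-seq2 amplification of 10 oocytes each with ERCC spike-in RNA. TopHat2 2.1.1, Cufflinks 2.2.1 and build mm9 appear in the submitters' processing notes with no role stated. The deposited table holds FPKM, averaged by the authors within each group, so tests, refits without single libraries and a replicate block planned for values per library were not possible. Files were read with pandas 2.3.3 under Python 3.11.15. Group means were compared on the log2(FPKM + 1) scale for the 11913 genes that averaged 1 FPKM or more, and genes at least 2-fold apart are counted; the calculation was tested on simulated data. Alternatives were median-of-ratios scaling, quantile normalization, a pseudocount of 0.1, no filter and a minimum of 5. All genes of the symbol rule may be named. Values in all 4 groups were meant for genes 2-fold apart, the most abundant of each complex and paralogs, and further values, those of genes with overlapping exons and of Abce1 among them, were chosen after they were seen. The genes and lists were chosen with earlier results of these data known. Exons came from GENCODE vM21 and promoters from RefSeq, both on GRCm38, and no coordinates of the authors' build were used. Depth is unknown, so no interval is given.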

Additional observations from a re-analysis of the deposited data

Results flagged for a closer look

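Genotype effects of Eif4e1b had opposite signs at the 2 ages, with log2 differences of -1.13 at day 21 and 0.69 at day 14. Age effects had opposite signs in Mtr4-null and WT oocytes for 4 genes. The values were -1.94 in Mtr4-null and 1.16 in WT oocytes for Eef2k, -0.75 in Mtr4-null and 0.70 in WT oocytes for Eef2, -0.83 in Mtr4-null and 0.61 in WT oocytes for Eif4b, and -0.68 in Mtr4-null and 0.60 in WT oocytes for Eif6. Both effects reached 1.5-fold in each of these 5 genes as deposited, and under both rescalings in Eef2k and Eif4e1b alone. Under median-of-ratios scaling the age effect in Mtr4-null oocytes was -0.33 for Eef2, -0.41 for Eif4b and -0.26 for Eif6, each short of 1.5-fold. Each effect rests on group means, and the differences between them were not tested.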

How the results depend on the processing

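No paired analysis was possible because the table holds 1 mean per group, and for the same reason no refit without a single library could be made. At day 14 the count of factors 2-fold apart was 0 as reported, with median-of-ratios scaling, without a filter and with a minimum mean FPKM of 5. It was 1 under quantile normalization, where Eif4g3 was lower, and 1 with a pseudocount of 0.1, where Eif5a2 was higher. At day 21 median-of-ratios scaling gave 14 apart rather than 24, with 7 lower rather than 18. With age in Mtr4-null oocytes it gave 6 apart, 2 of them lower, and quantile normalization gave 8 apart, 5 of them lower, rather than 14 and 11. With age in WT oocytes a pseudocount of 0.1 gave 4 apart, 3 of them lower, rather than 2 and 1. The cause of these moves was not tested beyond what each scaling does to all genes. For age in Mtr4-null oocytes the median of all genes was -0.30, and 0.055 under median-of-ratios scaling. At day 14 it was 0.052, and -0.097 under quantile normalization. At day 14 the median of the factors lay -0.11 from that of all genes, and 0.013 under quantile normalization. No gene that was 2-fold apart changed sign under any alternative. Genes near a few FPKM, such as Eif5a2, Eif4ebp2 and Eif2b5, are the least certain, and no error can be given for any value.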
